A study of Mus musculus with 6 samples.

Results

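The flavin-containing monooxygenase (FMO) genes Fmo5, Fmo1, Fmo2 and Fmo4 were followed in the liver of mice that lack a working Fmo5 gene. They were chosen by symbol, as the 4 members with a row in the deposited comparison table, out of 54446 genes with counts in each library. RNA-seq had been done on whole liver of 3 wild-type (WT) and 3 Fmo5-/- male mice, all 32 weeks old, on the C57BL/6J background (C57BL/6 in the labels) and fed chow, with 1 library per mouse. Fmo5-/- mice are a knockout of the whole animal, and the sources used here do not describe the construct. The comparison asks how much Fmo5 signal is left in Fmo5-/- livers, and whether the transcripts of its relatives differ between the genotypes. Because whole liver was used, fewer cells of a type and less RNA per cell cannot be told apart.

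FMOs are membrane-bound enzymes of the endoplasmic reticulum that carry FAD and use NADPH and molecular oxygen to oxygenate their substrates. FMO1 and FMO2 act mostly on nitrogen and sulfur atoms of drugs and other foreign chemicals, and FMO1 also converts hypotaurine to taurine. FMO5 can insert an oxygen atom next to the carbonyl carbon of ketones, a Baeyer-Villiger oxidation that yields esters. Less is known of the substrates of FMO4.

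Fmo5 (ENSMUSG00000028088.14) lies apart from its relatives, on the plus strand of chromosome 3 at 97628804 to 97655282 (mm10), with 9 exons after merging of its transcripts. Fmo4 (ENSMUSG00000026692.12, 162793188 to 162813972), Fmo1 (ENSMUSG00000040181.14, 162829561 to 162866610) and Fmo2 (ENSMUSG00000040170.13, 162874317 to 162898726) follow each other on the minus strand of chromosome 1. None of the 4 overlaps another annotated gene, so reads of a gene on the other strand were not counted with them.

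The stretches shown here are 75 bases of coding sequence, the length of 1 read, taken from near the start of each protein to show how far a read can tell Fmo5, Fmo2 and Fmo4 apart. In Fmo2 and Fmo4, capitals mark a base that is the same as in Fmo5, and Fmo5 itself is in lower case. All are written 5′ to 3′ on the strand of the gene, from GRCm38 (mm10). Fmo5 is at chr3:97629109-97629183 on the plus strand, Fmo2 at chr1:162898186-162898260 and Fmo4 at chr1:162809802-162809876 on the minus strand, each within 1 exon.
Fmo5: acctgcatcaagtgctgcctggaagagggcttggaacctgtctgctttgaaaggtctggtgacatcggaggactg
Fmo2: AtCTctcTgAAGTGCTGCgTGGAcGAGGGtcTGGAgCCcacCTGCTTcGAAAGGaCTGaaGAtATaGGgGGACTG
Fmo4: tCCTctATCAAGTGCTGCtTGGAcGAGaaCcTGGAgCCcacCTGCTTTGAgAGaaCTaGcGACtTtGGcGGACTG

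The sequences differed at many positions. Fmo2 and Fmo4 each had the same base as Fmo5 at 55 of the 75 positions. Over the whole coding sequence, the longest identical run of Fmo5 was 24 bases with Fmo1, 15 with Fmo2 and 12 with Fmo4. Over the whole aligned coding sequence, Fmo5 was identical to Fmo1 at 59% of positions, to Fmo2 at 61.8% and to Fmo4 at 57.7%. In any aligned window of 75 columns, Fmo1 differed from Fmo5 at 16 or more columns, Fmo2 at 15 or more and Fmo4 at 19 or more. Of the 5795 distinct runs of 75 bases in Fmo5 transcripts, 0 occurred in a transcript of any other annotated gene, and the same was true of Fmo2 (0 of 5648) and Fmo4 (0 of 3698). Fmo1 had 386 of 6314 such runs in transcripts of other genes (6.11%), and 0 of these came from its longest coding transcript. A read of 75 bases that matches a transcript of another annotated gene with no mismatch therefore matches none of Fmo5.

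Fmo5, the targeted gene, was far lower in all 3 Fmo5-/- livers. The WT libraries held 37589, 33521 and 29576 Fmo5 reads, and the Fmo5-/- libraries held 1150, 1201 and 1216. Scaled for library size by TMM factors, which set the bulk of genes equal between libraries, the WT values were 39808, 37405 and 30240 normalised counts and the Fmo5-/- values 1071, 1102 and 1194. The WT mice spread more (35818 ± 4978, SD, n = 3) than the Fmo5-/- mice (1122 ± 63.7, SD, n = 3), and the groups were far from overlapping. By edgeR's quasi-likelihood test, the log2 fold change was -4.996 (SE 0.14, 95% confidence interval -5.30 to -4.69, adjusted p = 2.79e-07). The level was thus 31.9-fold lower in Fmo5-/- mice, with an interval of 25.8-fold to 39.5-fold, and the genotype labels of all 6 libraries matched the targeted gene.

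The residual Fmo5 signal was small but well above the limit of detection. Relative to the WT mean, the Fmo5-/- livers held 2.99%, 3.08% and 3.33% of the Fmo5 normalised counts, or 3.13% ± 0.18 (SD, n = 3). The exact 95% Poisson intervals of these values, which cover counting error alone, were 2.82% to 3.17%, 2.91% to 3.26% and 3.15% to 3.53%. The value of the third mouse lay above the interval of the first. The interval of the fitted difference, which includes the spread between mice, placed the residual at 2.53% to 3.88% of WT. The Fmo5 counts in the Fmo5-/- libraries were at least 383 times the 3 reads taken as the limit of what a count of 0 allows. By comparison, Fmo6 had 1 read in 1 WT library and 0 in the other 5, and Fmo9 had 0 in all 6. Both family genes were too low for testing, and 0 reads allow a level of up to 0.0668 CPM (reads of the gene scaled to a common number of reads on genes) in the library where that limit is highest. The gene-level counts do not show where in Fmo5 the remaining reads lie, so whether they come from exons before or after the disruption was not tested.

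The strand columns carry no information on the origin of the residual reads. STAR reports, for each gene, the reads that fit each strand, and over all genes between 49.9% and 50.1% of the strand-specific counts were in the first strand column, so the library preparation does not mark strand, and a share near 50% is what any transcript gives. The share of Fmo5 reads in that column was 48.6%, 49.1% and 49.2% in WT mice and 48.5%, 47.96% and 49.6% in Fmo5-/- mice. The Wilson 95% intervals of the Fmo5-/- shares ran from 45.1% to 52.4% in all and covered every WT value. The mean share of the WT livers, 48.98% ± 0.30, and that of the Fmo5-/- livers, 48.7% ± 0.83 (SD, n = 3 each), differed by less than the spread between replicates (difference -0.29 percentage points, two-sided exact permutation test, p = 0.6, smallest possible 0.1).

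**Figure D1:**
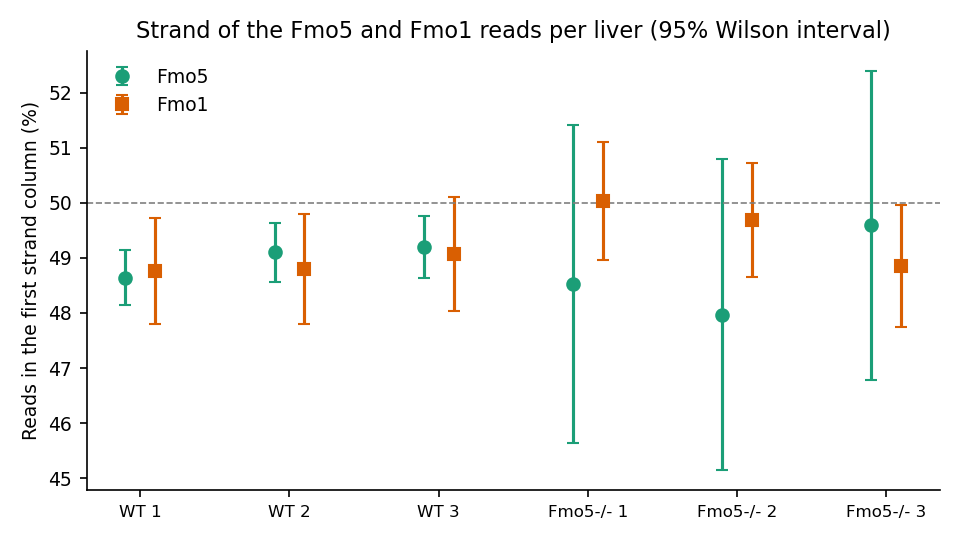
Percent of the strand-specific reads of Fmo5 (circles) and Fmo1 (squares) that fall in the first strand column (y axis) in each of the 3 WT and 3 Fmo5-/- livers (x axis), with 95% Wilson intervals and a dashed line at equal shares; the y axis does not start at 0. The Fmo5 shares in Fmo5-/- livers, 48.5%, 47.96% and 49.6%, have wide intervals that take in the WT values of 48.6% to 49.2%.

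Fmo1 was the only other member whose genotypes did not overlap. Its normalised counts were 10889, 10804 and 9258 in WT mice and 7830, 8288 and 7688 in Fmo5-/- mice, so that the highest Fmo5-/- mouse lay below the lowest WT mouse. The WT mean was 10317 ± 918 and the Fmo5-/- mean 7935 ± 314 (SD, n = 3 each), which gave a log2 fold change of -0.38 (SE 0.09, 95% confidence interval -0.59 to -0.17), or a difference of -23.1% (interval -33.5% to -11.1%). The call depended on the test. The edgeR test gave an adjusted p of 0.0712 over all genes, which missed the threshold of 0.05, whereas the Wald test of DESeq2 gave a log2 fold change of -0.40 (SE 0.11) and an adjusted p of 0.00617, which passed it. The edgeR fit with no filter on low counts also passed (adjusted p = 0.00414), and over all alternatives the adjusted p ranged from 0.00414 to 0.209.

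Fmo2 values of the genotypes overlapped. Fmo2 is mainly a lung enzyme, and its counts in liver were low. The WT livers had 297, 417 and 375 normalised counts and the Fmo5-/- livers 337, 418 and 460, with means of 363 ± 61.3 and 405 ± 62.6 (SD, n = 3 each). The log2 fold change was 0.16 (SE 0.16, edgeR adjusted p = 0.617), and its 95% interval of -0.21 to 0.52 reaches from 13.4% below to 43.8% above the WT level.

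Fmo4 values overlapped as well. The WT livers had 434, 412 and 508 normalised counts and the Fmo5-/- livers 476, 381 and 415, with means of 451 ± 50.4 and 424 ± 48.2 (SD, n = 3 each). The log2 fold change was -0.09 (SE 0.13, edgeR adjusted p = 0.729). Its 95% interval of -0.38 to 0.20 spans differences from -23.0% to 14.6%, and its lower bound is close to the difference measured for Fmo1.

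**Figure D2:**
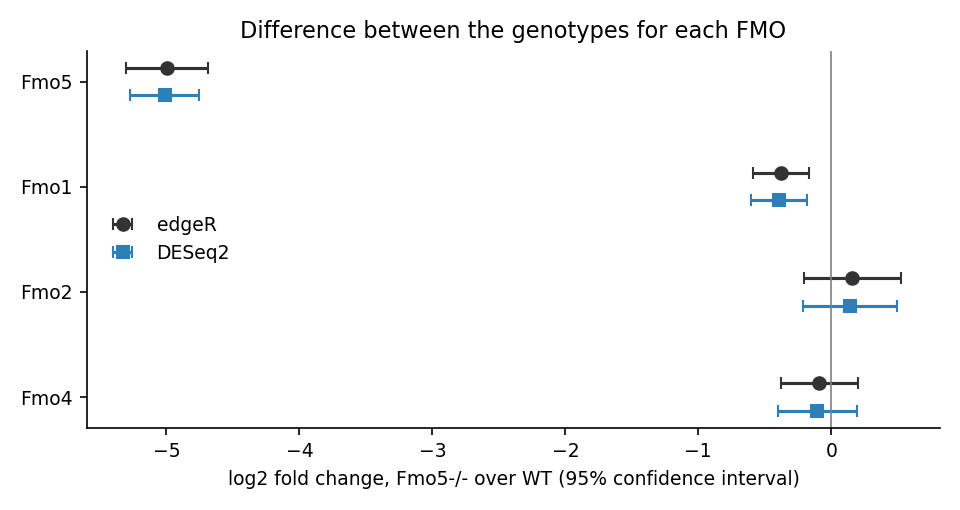
Log2 fold change, Fmo5-/- over WT, of each of the 4 FMO genes (x axis) with its 95% confidence interval, from edgeR (circles) and DESeq2 (squares). Fmo5 stands at -4.996 in edgeR, both intervals of Fmo1 (-0.38 in edgeR and -0.40 in DESeq2) lie below 0, and those of Fmo2 and Fmo4 span 0.

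In counts, 1 of the 4 members, Fmo5 itself, was called lower by edgeR and 0 were called higher, against 0.693% of all 16734 tested genes called lower and 0.675% called higher, or 1.37% called in either direction. At an unadjusted p under 0.05 in edgeR, 2 of the 4 passed, Fmo5 and Fmo1, against 21.8% of all tested genes. DESeq2 called 2 of the 4, Fmo5 and Fmo1, against 8.96% of the genes it tested, and edgeR without a filter called the same genes against 5.82%. For 2 of the 4 members, Fmo5 and Fmo1, the values of the genotypes did not overlap, which was also the case for 27.4% of all tested genes. Fmo5 is in each of these counts as the targeted gene, lowered by the design, and Fmo1 is the only relative in any of them. None of the alternatives called Fmo2 or Fmo4.

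The order of the members changed with the loss of Fmo5. Levels of genes of unequal length are compared as RPKM, which is CPM per kilobase of exon. The length is that of the merged exons of all transcripts, 6304 bases for Fmo1 and 5675 for Fmo5. The transcripts with the longest coding sequence are 2388 bases long for Fmo1 and 5197 for Fmo5. Ratios between genes therefore depend on the length chosen, and were not computed with transcript lengths. In WT liver the RPKM values were 144, 135 and 109 for Fmo5, 35.4, 35.1 and 30.1 for Fmo1, 2.40, 2.28 and 2.81 for Fmo4 and 1.08, 1.52 and 1.37 for Fmo2. By merged exon length, Fmo5 was thus the highest of the family in WT liver, 3.86 times Fmo1. Fmo1 in turn was 13.4 times Fmo4, and Fmo4 was 1.88 times Fmo2. In Fmo5-/- liver they were 25.5, 26.9 and 24.99 for Fmo1, 3.87, 3.98 and 4.31 for Fmo5, 2.63, 2.11 and 2.30 for Fmo4 and 1.23, 1.53 and 1.68 for Fmo2. Fmo1 was then the highest and the remaining Fmo5 signal came next, still 1.73 times Fmo4. No neighbours in either order overlapped between libraries, and each order held in all 3 livers of its genotype. Among 16729 genes ranked by mean RPKM, Fmo5 was number 370 in WT mice and number 5909 in Fmo5-/- mice, whereas Fmo1 was number 1233 and number 1419, Fmo4 number 7562 and number 7898, and Fmo2 number 9601 and number 9449.

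**Figure D3:**
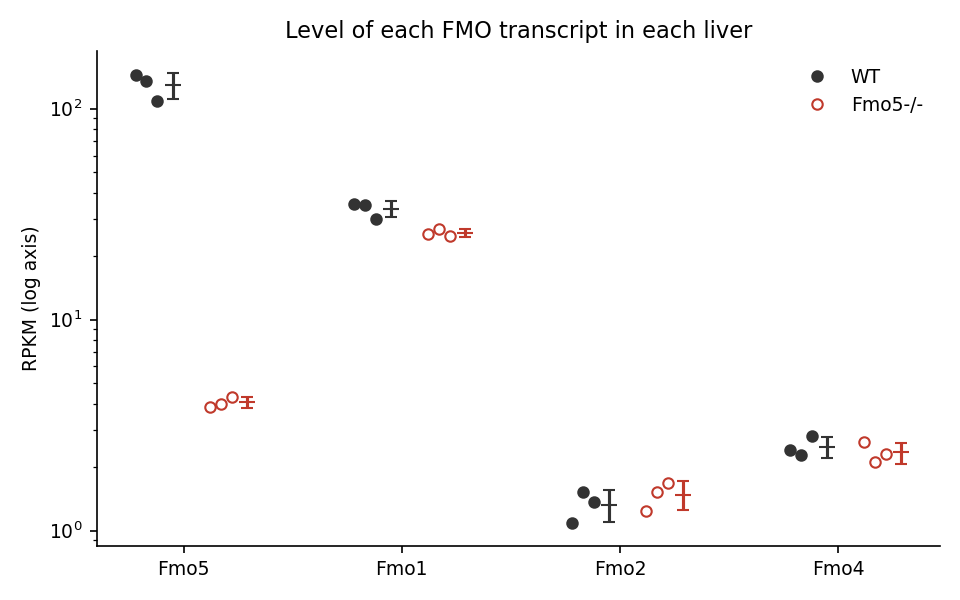
RPKM (y axis, log scale) of Fmo5, Fmo1, Fmo2 and Fmo4 (x axis), with 1 point per liver for WT (filled) and Fmo5-/- mice (open), and the mean with its SD (n = 3) beside them. Fmo5 falls from 109 to 144 in WT livers to 3.87 to 4.31 in Fmo5-/- livers, where it lies between Fmo1 and Fmo4.

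The loss of Fmo5 was not matched by a higher level of the other members. Summed over the 4 genes, the RPKM level was 183, 174 and 143 in WT mice and 33.2, 34.6 and 33.3 in Fmo5-/- mice, so that Fmo5-/- livers held 20.2% of the WT mean. Without Fmo5, the sum of Fmo1, Fmo2 and Fmo4 was 38.9, 38.9 and 34.3 in WT mice and 29.3, 30.6 and 29.0 in Fmo5-/- mice. This sum was 79.3% of the WT mean, and the genotypes did not overlap (two-sided exact permutation test, p = 0.1 for each sum, the smallest this design allows, n = 3 each). Most of it was Fmo1, which made up 89.7% ± 1.7 of the sum without Fmo5 in WT livers and 87.1% ± 0.95 in Fmo5-/- livers (SD, n = 3 each). Of the sum of all 4 genes, Fmo5 made up 77.5% ± 1.3 in WT mice and 12.04% ± 0.79 in Fmo5-/- mice. These sums and shares rest on merged exon lengths, and the transcript of Fmo1 can be much shorter. With CPM summed without a length, the log2 ratio of the sum of all 4 genes was -2.25, against -2.31 with RPKM.

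**Figure D4:**
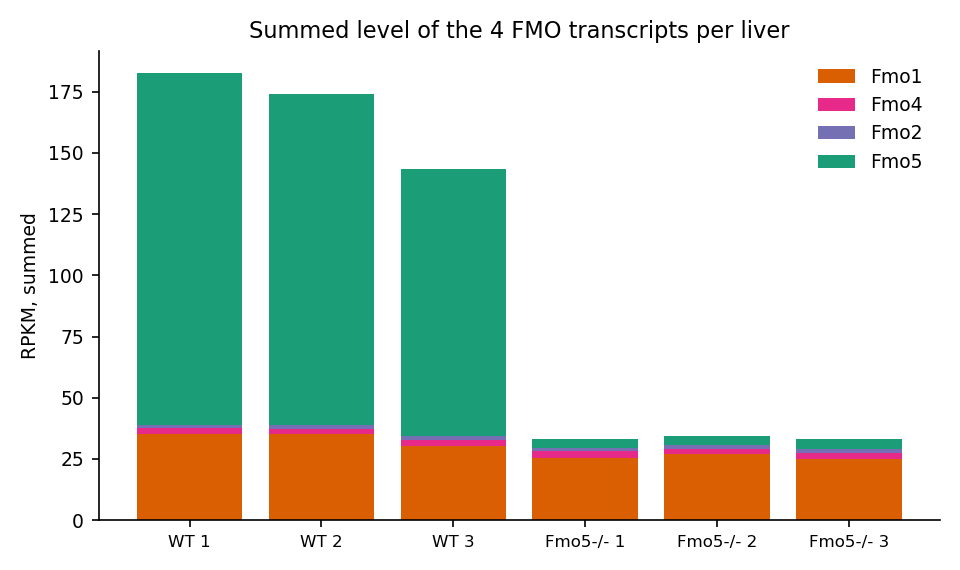
RPKM of Fmo1, Fmo4, Fmo2 and Fmo5, stacked (y axis, from 0), in each of the 3 WT and 3 Fmo5-/- livers (x axis). The bars reach 143 to 183 in WT livers and 33.2 to 34.6 in Fmo5-/- livers, and the part that is not Fmo5 is 34.3 to 38.9 and 29.0 to 30.6.

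Ratios between members within a library need no scaling between libraries. The log2 ratio of Fmo1 to Fmo2 counts was 5.20, 4.69 and 4.62 in WT mice and 4.54, 4.31 and 4.06 in Fmo5-/- mice, a difference of -0.54 with no overlap. The ratio of Fmo1 to Fmo4 (difference -0.29) and that of Fmo2 to Fmo4 (difference 0.25) overlapped between the genotypes. By two-sided exact permutation tests p was 0.1 for Fmo1 to Fmo2, the smallest possible, and 0.3 for the other 2 ratios, and the adjusted p over the 3 ratios was 0.3 for each. Fmo1 thus stood lower in Fmo5-/- livers against Fmo2 too, but with 3 mice per genotype the exact permutation test cannot reach a threshold of 0.05.

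Fmo1 had a lower mean in Fmo5-/- mice in all 12 alternatives, with log2 fold changes between -0.45 and -0.31, and Fmo2 a higher mean in all 11 that could be fitted, between 0.04 and 0.27. Fmo4 lay between -0.18 and 0.01, and turned to the other side of 0 when the third WT mouse was left out.

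**Figure D5:**
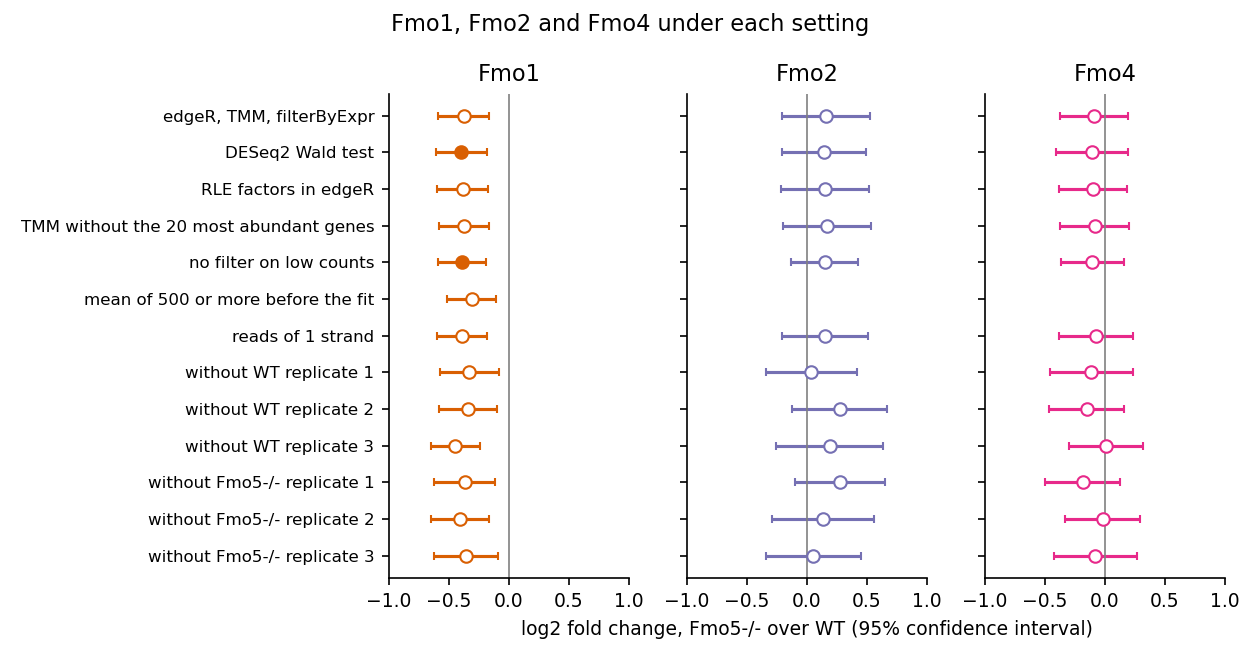
Log2 fold change, Fmo5-/- over WT, with its 95% confidence interval (x axis) for Fmo1, Fmo2 and Fmo4 under each setting (y axis); filled points passed an adjusted p of 0.05, and Fmo2 and Fmo4 have no value where genes under a mean of 500 were left out. Fmo1 lies below 0 in every setting, from -0.45 to -0.31, and is filled for DESeq2 and for the fit with no filter.

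The tested genes nearest to the members on the chromosome were also examined. Of the 3 tested genes nearest to Fmo5 on each side, 0 of 6 passed the edgeR test, against 1.37% of all genes. Chd1l, a chromatin remodelling helicase, ends 18.6 kb before Fmo5 and had a log2 fold change of 0.21 (SE 0.11, adjusted p = 0.322). Prkab2, a regulatory subunit of the energy sensor AMPK, starts 2.91 kb after it and had a log2 fold change of 0.20 (SE 0.18, adjusted p = 0.56). Farther out, Bcl9, a coactivator of β-catenin, was the only one of the 6 whose genotypes did not overlap, with 454 ± 115 normalised counts in WT and 662 ± 34.5 in Fmo5-/- mice (SD, n = 3 each, adjusted p = 0.123). That is 1 of 6, against 27.4% of all tested genes. Gm43075, Pde4dip and Gm31305 had log2 fold changes between -0.17 and 0.22. Around the cluster on chromosome 1, 0 of 6 tested genes passed, with adjusted p between 0.213 for Prrx1 and 0.773 for Prrc2c, and Mettl13, Vamp4, Gorab and Kifap3 between these. They lie between 52.6 kb (Prrc2c) and 881 kb (Kifap3) from the cluster. Kifap3, a kinesin-associated protein gene, was 1 of these 6 whose genotypes did not overlap, against 27.4% of all tested genes, with 258 ± 11.3 normalised counts in WT and 217 ± 13.7 in Fmo5-/- livers (SD, n = 3 each).

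For each member, the genes most like it over the 6 libraries were those with the smallest root mean square difference of log2 normalised counts after centring, among genes with a mean of 500 or more. The closest to Fmo5 was Mme, which encodes the peptidase neprilysin, at a difference of 0.45. Its normalised counts were 3318, 2827 and 2006 in WT mice and 188, 92.7 and 98.2 in Fmo5-/- mice (log2 fold change -4.42, edgeR adjusted p = 0.00871). The next were Selenbp2, a selenium-binding protein gene, at 1.11, and Mup9, a major urinary protein gene, at 1.62. The measure is not scaled for the size of a change, so only genes with a similarly large change can come close to Fmo5. The differences from Fmo5 are therefore not comparable with those found for the other members. Mme and Selenbp2 lie on chromosome 3 as Fmo5 does, 34.2 Mb and 2.92 Mb before it. Selenbp2 had 3818, 26125 and 23009 normalised counts in WT mice and 177, 202 and 453 in Fmo5-/- mice, with an adjusted p of 0.0736 (edgeR).

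Fmo1 was followed closely by Txndc5, a disulfide isomerase of the endoplasmic reticulum, at a difference of 0.04. Txndc5 had 10697, 10244 and 9560 normalised counts in WT mice and 7771, 8296 and 7771 in Fmo5-/- mice, and an adjusted p of 0.0694 (edgeR), close to that of Fmo1. Next to it were Canx, the chaperone calnexin, at 0.04 and 4931406C07Rik at 0.05. Fmo4 was closest to Sesn3 (0.03), Itih2 (0.04) and Tecr (0.05), and Fmo2 to Ablim3 (0.06), Ccdc137 (0.06) and Grik5 (0.07), with adjusted p of 0.376 or more for all 6. The members were less like each other than like these genes, with 0.25 between Fmo1 and Fmo4, 0.30 between Fmo2 and Fmo4 and 0.35 between Fmo1 and Fmo2. With 6 libraries and 7818 genes compared with Fmo5, close patterns are easily found, and these values are a description of the libraries.

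FMOs need FAD and NADPH, and calls among the genes for NADPH supply depended on the test. Of 5 tested genes for FAD supply, 0 passed in edgeR (1.37% of all genes) and 0 in DESeq2 (8.96% of all genes), 1 had an unadjusted edgeR p under 0.05 (21.8% of all genes), and 4 had lower means in the knockout. The median log2 fold change of the list was -0.23, against 0.01 over all genes, of which 49.2% had a log2 fold change below 0. Rfk, the riboflavin kinase that makes FMN, had 1647 ± 68.7 normalised counts in WT and 1402 ± 103 in Fmo5-/- mice (SD, n = 3 each, adjusted p = 0.152), and Flad1, which turns FMN into FAD, 2327 ± 102 and 2260 ± 40.1. Of 15 tested genes for NADPH supply, 0 passed in edgeR, where 4 had an unadjusted p under 0.05, against 21.8% of all genes, and 9 had lower and 6 higher means, with a median of -0.04. DESeq2 called 3 of the 14 it tested, against 8.96% of all genes, Idh1, Me1 and Nadk2, all lower in the knockout. The genotypes did not overlap in 4 of these 15, against 27.4% of all genes. Idh1, the cytosolic NADP-dependent isocitrate dehydrogenase, had a log2 fold change of -0.47 (SE 0.10, adjusted p = 0.0564 in edgeR and 0.00082 in DESeq2) and Aldh1l1, which yields NADPH from formyl-tetrahydrofolate, one of 0.08 (adjusted p = 0.666). Chosen after their values were seen, Me1, the cytosolic malic enzyme, had the lowest log2 fold change of the list at -1.30 (SE 0.32, adjusted p = 0.0961 in edgeR and 0.00629 in DESeq2), and Nadk2, the mitochondrial NAD kinase, stood at -0.45 (adjusted p = 0.0938 in edgeR and 0.0175 in DESeq2), both with no overlap.

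Genes for enzymes that share the membrane of FMOs or use a flavin were listed too. Of 8 tested genes of microsomal electron transfer, which serve cytochromes P450, 0 passed in edgeR, against 1.37% of all genes. An unadjusted edgeR p under 0.05 was found for 4 of them, against 21.8% of all genes. In 3 of the 8 the genotypes did not overlap, against 27.4% of all genes. The list had 5 lower and 3 higher means and a median log2 fold change of -0.07. DESeq2 called 1 of the 7 it tested, Pgrmc1, against 8.96% of all genes. Pgrmc1, a haem-binding membrane protein, stood at -0.36 (adjusted p = 0.122 in edgeR and 0.0347 in DESeq2) and Cyb5a, cytochrome b5, at -0.10 (adjusted p = 0.594). Of 13 tested genes for other flavin-dependent oxidases, dehydrogenases and monooxygenases, 0 passed in edgeR, against 1.37% of all genes. An unadjusted edgeR p under 0.05 was found for 6 of them, against 21.8% of all genes. Lower means were found for 11, against 49.2% of all genes, and the median was -0.13. DESeq2 called 3 of the 13, against 8.96% of all genes, namely Dmgdh and, named for this call alone, Hao1, a glycolate oxidase, and Maoa, a monoamine oxidase, all lower in the knockout. The genotypes did not overlap in 7 of these 13, against 27.4% of all genes. Dmgdh, the mitochondrial dimethylglycine dehydrogenase, had a log2 fold change of -0.42 (SE 0.11, adjusted p = 0.0794 in edgeR and 0.00821 in DESeq2), and Sardh, the sarcosine dehydrogenase next to it in choline breakdown, one of -0.13 (adjusted p = 0.574).

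Around the hypotaurine reaction of FMO1, 1 of 6 tested genes passed in edgeR, against 1.37% of all genes, and it was lower in Fmo5-/- mice. This was Csad, the decarboxylase that forms hypotaurine, with 27788 ± 5654 normalised counts in WT and 15663 ± 1995 in Fmo5-/- mice (SD, n = 3 each). Its log2 fold change was -0.83 (SE 0.16, edgeR adjusted p = 0.0494), and it passed in 1 of the 6 fits that left out a library. DESeq2 called 2 of the 6, against 8.96% of all genes, Csad and Baat, which joins taurine to bile acids and is named for this call alone, both lower. Of the 6, 3 had an unadjusted edgeR p under 0.05, against 21.8% of all genes, and 3 had no overlap, against 27.4%. The list had 5 genes with lower means and a median log2 fold change of -0.20.

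The tissue and other cell types were checked with marker lists. Alb, the albumin gene, had a log2 fold change of -0.06. Of 8 hepatocyte markers, 0 passed the edgeR test and 1, Tdo2, passed in DESeq2, against 8.96% of all genes. Tdo2 was lower in the knockout, with no overlap (log2 fold change -0.48, edgeR adjusted p = 0.0709). Of the 8, 7 had lower means, and the median was -0.10. Their summed levels were 105360 to 138722 CPM in WT and 107788 to 135096 in Fmo5-/- livers. Male-biased liver genes were abundant, at 3984 to 6643 CPM in WT and 3515 to 4210 in Fmo5-/- livers. Of these 9 genes, 8 had lower means in the knockout, 0 passed in edgeR and 1 passed in DESeq2, against 8.96% of all genes. This was Mup20, a major urinary protein gene, with a log2 fold change of -0.98 in edgeR (adjusted p = 0.122) and -0.99 in DESeq2 (adjusted p = 0.0487), and with no overlap. Female-biased genes were low in both, at 2.81 to 5.23 and 3.98 to 6.13 CPM. Of the Kupffer cell and macrophage markers, all 8 of 8 had higher means in Fmo5-/- mice, and their summed level was 213 to 254 CPM in WT and 336 to 599 in Fmo5-/- livers. Of these, 1 passed the edgeR test, against 1.37% of all genes, Clec4f, a Kupffer cell receptor (log2 fold change 0.70, SE 0.11, adjusted p = 0.0275), which passed in 2 of the 6 fits that left out a library. DESeq2 called 7 of the 8 higher, against 8.96% of all genes, and the genotypes did not overlap in 7, against 27.4% of all genes. Lymphocyte markers were low, at 4.69 to 7.81 CPM in WT and 8.59 to 23.9 in Fmo5-/- livers. All 7 tested lymphocyte markers had higher means in the knockout, where the median log2 difference from WT was 1.43. The genotypes did not overlap in 4 of them, against 27.4% of all genes, and 0 of 7 passed the edgeR test, whereas DESeq2 called 2, Cd8a and Cd3e, against 8.96% of all genes. The part of macrophages and lymphocytes in the lower Fmo1 values was not tested.

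Within the lobule, perivenous and periportal hepatocytes differ in many enzymes. Of 9 perivenous markers, 1 passed the edgeR test, against 1.37% of all genes, Cyp1a2, which oxidises aromatic amines and caffeine, with 30709 ± 1541 normalised counts in WT livers and 48272 ± 3708 in those of Fmo5-/- mice (SD, n = 3 each). Its log2 fold change was 0.65 (SE 0.10, edgeR adjusted p = 0.0208). It passed in 4 of the 6 fits that left out a library. Of the 9, 8 had higher means in the knockout, with a median log2 fold change of 0.27, and 2 had no overlap, against 27.4% of all genes. The perivenous list summed to 7046 to 10011 CPM in WT and 8366 to 10172 in Fmo5-/- livers. Of 8 periportal markers, 0 passed in edgeR and 3 in DESeq2, all lower, against 8.96% of all genes in DESeq2. Of the 8, 5 had lower means, 3 had no overlap, against 27.4% of all genes, and the median was -0.12, with summed levels of 5307 to 5418 and 4439 to 5664 CPM. Endothelial (220 to 248 in WT, 233 to 255 in Fmo5-/-), stellate (215 to 277 and 222 to 316), cholangiocyte (36.3 to 67.6 and 45.0 to 53.7) and erythroid (202 to 302 and 204 to 433) markers overlapped in summed CPM, with 0 genes of these lists passing in edgeR or DESeq2. Means were higher in the knockout for 5 of 8 endothelial, 7 of 8 stellate, 4 of 6 cholangiocyte and 4 of 5 erythroid markers. The median log2 fold changes of these lists were 0.14, 0.25, 0.03 and 0.33.

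In the adipocyte list, 1 of 2 tested genes passed in edgeR, against 1.37% of all genes, and the same gene in DESeq2, against 8.96%. Cidea, which encodes a lipid droplet protein also made in fat-laden hepatocytes, had 83, 124 and 65 reads in WT mice and 3, 2 and 2 in Fmo5-/- mice (edgeR adjusted p = 0.000848), and it passed in all 6 fits that left out a library. The other tested gene, Fabp4, the fatty acid carrier of adipocytes, did not pass and had 402 ± 108 normalised counts in WT and 769 ± 550 in Fmo5-/- livers (SD, n = 3 each, log2 fold change 0.94, edgeR adjusted p = 0.418).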

How the data were processed

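The authors had mRNA libraries sequenced as single reads of 75 bases, mapped them to mm10 with STAR and deposited per-library gene counts for unstranded reads and for each strand. The authors also deposited signal values, which are the counts divided by 1 size factor per library, in a table with the log2 fold changes and p-values of their own comparison, which were not used. Libraries listed 67753857 to 75632821 reads, with 44886286 to 52338675 counts on genes, 66.2% to 69.2% of the reads. Rows that name no gene (unmapped 9.10% to 10.1%, multimapping 10.4% to 13.1%, no feature 6.86% to 8.63% and ambiguous 3.52% to 3.98%) stayed out of library sizes and tests.

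From the unstranded counts, genes kept by filterByExpr (minimum count 10) were fitted with edgeR 4.0.16 (TMM factors, quasi-likelihood test, WT against Fmo5-/-, Benjamini-Hochberg adjustment over 16734 genes, threshold 0.05). DESeq2 1.42.0 in R 4.3.3 was an alternative. The others were other scalings and filters, the reads of 1 strand and leaving out each library. The edgeR fit was tested on simulated data, where it recovered 11.9% of genes changed by 0.5, 79.1% by 1 and 90.9% by 2 on the log2 scale among 16734 genes. Levels between genes are RPKM computed here, that is TMM-scaled CPM per kilobase of merged exons of GENCODE (GRCm38), in which 54409 of 54446 gene IDs were found. Single values were compared by exact permutation tests over the libraries. Poisson and Wilson intervals at 95% and the floor of 3 counts cover counting error alone, and reads had no molecular identifiers. The intervals of fitted fold changes include the spread between mice.

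Sequences came from the GRCm38 transcripts and were aligned as coding sequence with biopython 1.88. Promoter windows of 300 bases from RefSeq (GRCm38.p6), held for Fmo2, Fmo4 and Fmo5, were searched on both strands for TGACNNNGC, the core of the antioxidant response element. It was found in 0 of them and in 12.4% of 32851 windows.

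The members and lists were chosen with earlier results of these data known. Genes named are the members, 2 other family genes, the 3 tested neighbours on each side, the 3 most alike genes, and of each list every gene called by edgeR or otherwise the 2 most abundant, of which some are given only within the list. Some genes of the lists called by DESeq2 alone are also named, chosen after their values were seen, and the ratios within a library were added after seeing the data. The study's methods give 3 livers per genotype, so replicates were taken as separate animals. Another family gene that was listed, and the matching stretch of Fmo1, are not reported here.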

Additional observations from a re-analysis of the deposited data

How the results depend on the processing

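Fmo5 kept its direction and passed the threshold in all 12 alternatives, with log2 fold changes between -5.10 and -4.91 when 1 library was left out and between -5.01 and -4.93 otherwise. Fmo1 passed the threshold with DESeq2 (-0.40) and with no filter on low counts (-0.39). With 1 library left out it ranged from -0.45 to -0.33, with adjusted p between 0.0648 and 0.209. Fmo2 ranged from 0.04 to 0.27, and Fmo4 from -0.18 to 0.0079, which was on the other side of 0 without the third WT mouse. Fmo2 and Fmo4 have no value where genes under a mean of 500 were left out first. The count of genes past the threshold moved most. From 229 it went to 1395 with DESeq2, 1989 with no filter, 53 with a mean of 500 or more before the fit, 126 with that limit applied after it, and 31 to 763 with 1 library left out, without the first and the third Fmo5-/- mouse. Without the WT mice it was 62, 82 and 148, and without the second Fmo5-/- mouse 106. The cause was not tested. The residual Fmo5 level was 3.38% of WT with no TMM factor and 2.91% to 3.32% with 1 library left out. The sum of the 3 other members, at a log2 ratio of -0.33, was -0.22 with no TMM factor and -0.39 to -0.30 with 1 library left out. The sum of all 4 stayed between -2.40 and -2.20. The share of Fmo5 reads by strand differed by -0.74 to 0.08 percentage points between the genotypes with 1 library left out. No paired analysis was possible because the labels number no replicates across the genotypes. Of genes changed by 0.5 on the log2 scale in simulated data, edgeR recovered 11.9% and DESeq2 13.4%. No difference as small as that of Fmo1 was simulated.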
